A study of Homo sapiens with 9 samples.

Results

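Transcript levels in U937 cells taken directly after 15 min at 44 °C were set against those taken directly after 15 min at 42 °C, with 0 h of recovery at 37 °C in both. These were 2 of the 9 arrays of the series, chosen by their labels, and they carry 19775 genes. U937, the cell line used, was established from a human lymphoma, grows unattached and resembles monocytes. The other 7 arrays are unheated control cells kept at 37 °C, and cells kept at 37 °C for 1, 3 or 6 h after 15 min at 42 °C or 44 °C. The labels name no drug, transgene or genetic change in any group, and they place the series in the study of apoptosis induced by heat stress. Each group had 1 array, so no spread between cultures could be measured, no test was run and no p-value is given. All values describe these arrays, and the effect of 2 °C cannot be told apart from any other difference between the 2 cultures. The control array entered no difference between the temperatures and is given as a level beside them.

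Cells answer heat with the heat shock response. Unfolded proteins draw chaperones away from heat shock factor HSF1, which forms trimers, binds heat shock elements in promoters and releases paused RNA polymerase into genes of chaperones and their partners. Strong heat can also halt transcription, splicing and translation in general, and transcripts with short lifetimes then show such a halt sooner than stable ones. Immediate early genes, which many stimuli induce without new protein synthesis, have short-lived transcripts of this kind.

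Short probes on the arrays read each transcript close to its 3′ end. Deposited signals had a trimmed mean of 172 on the 44 °C array and 160.5 on the 42 °C array, and each array was scaled to a trimmed mean of 100. All levels below are such scaled signals, with no unit, and can be compared between arrays for 1 probe set but not between genes. A floor was set at 12.5, the median over all scaled values, and 50.5% of probe sets on the 44 °C array and 49.4% on the 42 °C array lay above it. Lower signals were set to the floor. The ratio of 3′ to 5′ signal, a sign of RNA integrity, was 1.19 on both arrays for ACTB. The cell line label was checked against myeloid markers, of which 19 of 22 measured were above the floor, with summed levels of 23401 on the 44 °C array, 23147 on the 42 °C array and 21246 on the control array. The granule proteases ELANE (4369 and 4313 at 44 and 42 °C) and CTSG (5809 and 5692) were bright, while CD14, MPO and FCGR1A were under the floor on both arrays. Of 13 T cell markers, 11 were under the floor on the 44 °C array and 9 on the 42 °C array. Above the floor on 1 or both arrays were 6 of 11 B cell, 5 of 13 epithelial and fibroblast and 4 of 8 erythroid markers. Their summed levels on the 44 °C array, with values raised to the floor, were 254, 206 and 163 in that order.

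Stretches of promoter from 4 genes that recur below are shown first. They are RefSeq sequences of build GRCh38.p14, from 250 bases before to 50 bases after the gene start, written 5′ to 3′ on the strand of the gene. Capitals mark matches to the heat shock element of a pair of units, GAANNTTC or TTCNNGAA, each of which reads the same on both strands. HSPA6 (chr1:161524290-161524589, plus strand), SERPINH1 (chr11:75562003-75562302, plus strand) and IER5 (chr1:181088450-181088749, plus strand) were among the 5 genes with the largest lower levels at 44 °C, and CITED2 (chr6:139374599-139374898, minus strand) was among the 20 with the largest higher levels.
HSPA6: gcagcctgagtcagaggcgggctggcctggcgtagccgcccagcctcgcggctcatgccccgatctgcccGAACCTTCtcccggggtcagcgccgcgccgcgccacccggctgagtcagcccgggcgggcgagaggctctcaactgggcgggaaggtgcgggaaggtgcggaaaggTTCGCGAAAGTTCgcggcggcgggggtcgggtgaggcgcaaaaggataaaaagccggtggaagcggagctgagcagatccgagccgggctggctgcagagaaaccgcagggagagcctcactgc
SERPINH1: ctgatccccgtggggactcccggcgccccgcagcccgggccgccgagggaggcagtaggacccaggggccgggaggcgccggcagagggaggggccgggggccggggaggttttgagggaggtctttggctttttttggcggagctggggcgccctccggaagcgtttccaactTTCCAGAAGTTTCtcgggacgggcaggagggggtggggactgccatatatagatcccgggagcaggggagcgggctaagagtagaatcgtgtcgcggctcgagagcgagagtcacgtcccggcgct
IER5: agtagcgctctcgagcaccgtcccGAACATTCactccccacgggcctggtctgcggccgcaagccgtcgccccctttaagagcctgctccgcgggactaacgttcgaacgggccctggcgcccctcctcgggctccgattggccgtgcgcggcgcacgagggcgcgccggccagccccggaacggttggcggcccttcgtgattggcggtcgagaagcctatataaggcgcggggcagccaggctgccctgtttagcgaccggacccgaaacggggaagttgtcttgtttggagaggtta
CITED2: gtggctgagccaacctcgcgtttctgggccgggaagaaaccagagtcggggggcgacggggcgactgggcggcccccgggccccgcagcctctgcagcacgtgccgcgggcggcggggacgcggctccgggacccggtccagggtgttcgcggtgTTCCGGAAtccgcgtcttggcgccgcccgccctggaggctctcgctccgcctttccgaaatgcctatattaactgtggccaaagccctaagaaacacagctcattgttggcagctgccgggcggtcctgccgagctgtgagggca
In HSPA6 the matches begin 180, 74 and 69 bases before the gene start, the last 2 overlapping in a run of 3 units, in which GAA and TTC alternate at steps of 5 bases. SERPINH1 holds such a run with matches 76 and 71 bases before the start. IER5 holds 1 match, 226 bases before it, and CITED2 1 match, 95 bases before it. A match describes these letters and not the binding of a factor.

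**Figure D1:**
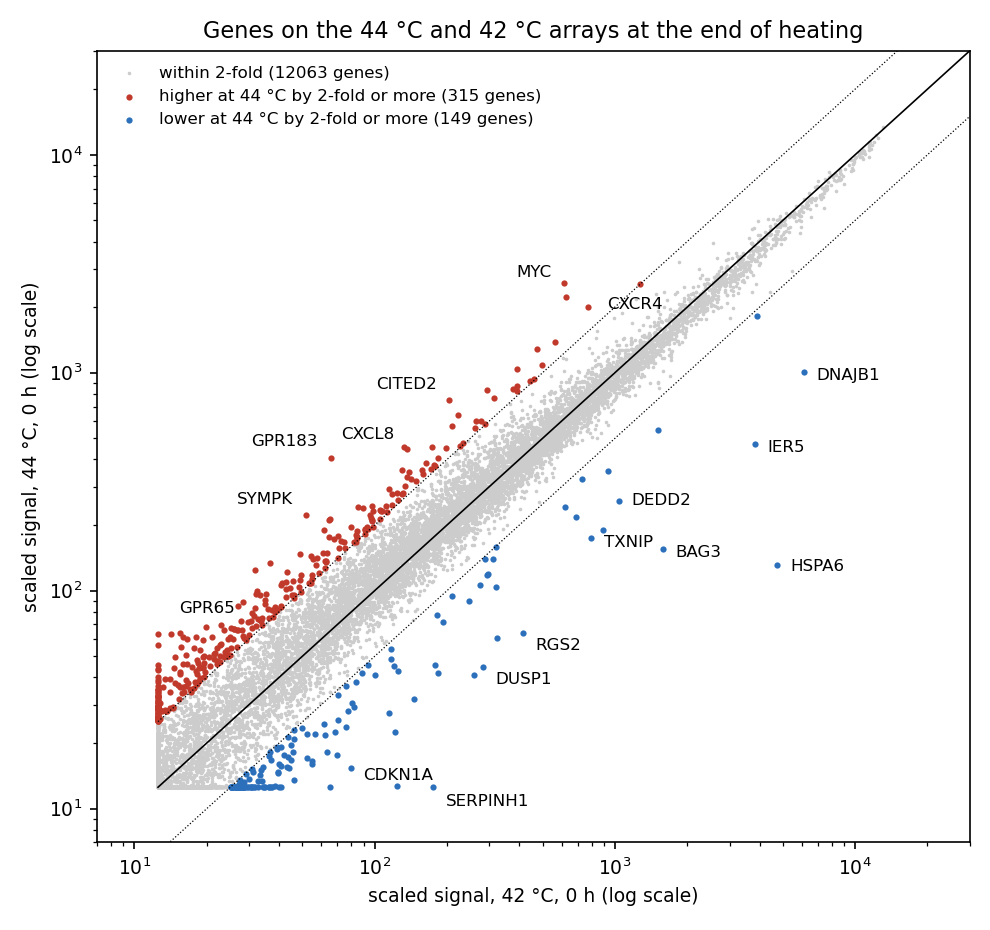
Scaled signal of each gene on the 44 °C array (vertical) against the 42 °C array (horizontal), both at 0 h and on log scales, for 12527 genes above the floor on 1 or both arrays. Red points are the 315 genes higher and blue points the 149 genes lower at 44 °C by 2-fold or more, with dotted lines at 2-fold. HSPA6, IER5, BAG3 and DNAJB1 lie far below the diagonal at bright signals.

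At the end of heating, 15 of 111 measured genes of the heat shock lists, HSPA6, SERPINH1, BAG3 and DNAJB1 among them, were lower by 2-fold or more after 44 °C than after 42 °C and 0 were higher, while GPR183, SREBF1, GPR65 and MYC were among the genes with the largest higher levels. All gene lists were chosen with earlier results of these data known, so their counts are a description. HSPA6, a strictly stress-inducible HSP70, stood at 131 on the 44 °C array, against 4751 on the 42 °C array, a 36.2-fold lower level. GPR183, a receptor for oxysterols on immune cells, stood at 405 at 44 °C, against 65.5 at 42 °C, a 6.18-fold higher level. In bulk RNA, fewer transcripts per cell and fewer cells holding them cannot be told apart. Of 12527 genes above the floor on 1 or both arrays, 315 (2.51%) were higher and 149 (1.19%) were lower at 44 °C by 2-fold or more, and 85.3% lay within 1.5-fold. At 4-fold or more 7 genes were higher and 19 lower, and at 8-fold or more 0 were higher and 5 were lower, namely HSPA6, SERPINH1, BAG3, COL2A1 and IER5. Probe sets that the annotation does not list ran the other way at 4-fold or more, with 36 of 11721 higher and 6 lower. That total includes probe sets under the floor on both arrays, unlike the 12527 genes. Among all genes past 2-fold, 67.9% were higher, and this share depended on the scaling, with 50.5% (218 higher and 214 lower) after quantile normalisation and 52.8% (219 and 196) after scaling to a common median. For 63 of the 315 the 42 °C level lay under the floor, and for 53 of the 149 the 44 °C level did, so these folds are lower bounds.

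Differences were wider among dim genes than among bright ones, except in the dimmest bin. In 10 bins of mean signal, the 99th percentile of the size of the log2 difference was 1.80 at a mean signal of 30.2 and 0.82 in the brightest bin, at a mean signal of 2156. It was 0.47 in the dimmest bin, whose mean signal of 13.5 lies close to the floor. The median log2 difference also changed with signal, from 0.15 at a mean signal of 96.3 to -0.09 in the brightest bin. Any response to temperature is included in these values. The brighter of the 2 levels was 100 or more for 117 of the genes that were higher and 40 of those that were lower. Other probe sets of the same gene give a further reading of the same RNA. Of the 19 genes lower by 4-fold or more, 9 had another probe set above the floor. All 9 had all such probe sets lower, and 8 had another past 2-fold. Just 1 of the 7 genes higher by 4-fold or more had another above the floor, also higher, with 0 past 2-fold. At 2-fold or more, 49 of the 149 lower genes had another probe set above the floor. In 38 of the 49 all such probe sets were lower, and 19 had another past 2-fold. Of the 315 genes higher by 2-fold or more, 128 had another probe set above the floor, and in 84 all of these were also higher, in 33 by 2-fold or more in at least 1.

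Among 11 measured genes of the HSP70 and HSP110 family, of which 9 were above the floor, 3 were lower by 2-fold or more and 0 higher, beside 1.19% lower among all genes above the floor. Besides HSPA6, whose other probe set gave a log2 difference of -5.44, these were HSPA1L and HSPH1. HSPA6 lies beside a near-identical copy, HSPA7, whose transcripts its probes may also read. HSPA1L, an HSP70 best known from testis, stood at 27.6 at 44 °C, against 115 at 42 °C, with a log2 difference of -2.06 on this probe set and -0.31 on another. HSPH1, an HSP110 that exchanges nucleotide on HSP70, stood at 1812 at 44 °C, against 3904 at 42 °C, a log2 difference of -1.11 that was -0.996 after quantile normalisation. HSPA5, the HSP70 of the endoplasmic reticulum, stood at 3920.0 and 3733 at 44 and 42 °C. HSPA1A, HSPA1B and HSPA8 were not analysed here, as no probe set is listed for any of them alone.

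Of 32 DNAJ (HSP40) genes, which hand clients to HSP70, 2 were lower by 2-fold or more and 0 higher, and the list median was -0.03. The share lower among all genes above the floor was 1.19%. DNAJB1, the inducible cytosolic HSP40, stood at 1008 at 44 °C, against 6139.6 at 42 °C and 742 on the control array, a 6.09-fold lower level after 44 °C. DNAJA4 stood at 40.8 at 44 °C, against 259 at 42 °C and 20.5 on the control array, and its 3 other probe sets differed by -2.17 to -0.26 on the log2 scale. Both genes thus lay between the control and the 42 °C array at 44 °C. Among the 10 BAG and other HSP70 cochaperones, 1 was lower. This was BAG3, which couples HSP70 to selective autophagy, at 156 at 44 °C, against 1591 at 42 °C, a 10.2-fold lower level.

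No member of the HSP90, small heat shock protein or chaperonin lists was past 2-fold. Of 11 small heat shock protein genes, just 5 were above the floor on 1 or both arrays and could have passed. Over 17 HSP90 genes and cochaperones the median log2 difference was -0.18, and over 10 chaperonin genes it was -0.16. In the brightest of the 10 signal bins, which holds genes of all kinds, it was -0.09. HSP90AA1, the inducible cytosolic HSP90, stood at 7321 at 44 °C and 8981 at 42 °C, and the constitutive HSP90AB1 at 8456 and 9592. HSPB1, a small heat shock protein, stood at 2944 at 44 °C and 5444 at 42 °C, a log2 difference of -0.89, which was -1.002 after scaling to a common median. HSF1 itself stood at 191 at 44 °C and 184 at 42 °C. Of the 6 measured heat shock factor genes 4 were above the floor, and 0 were past 2-fold.

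**Figure D2:**
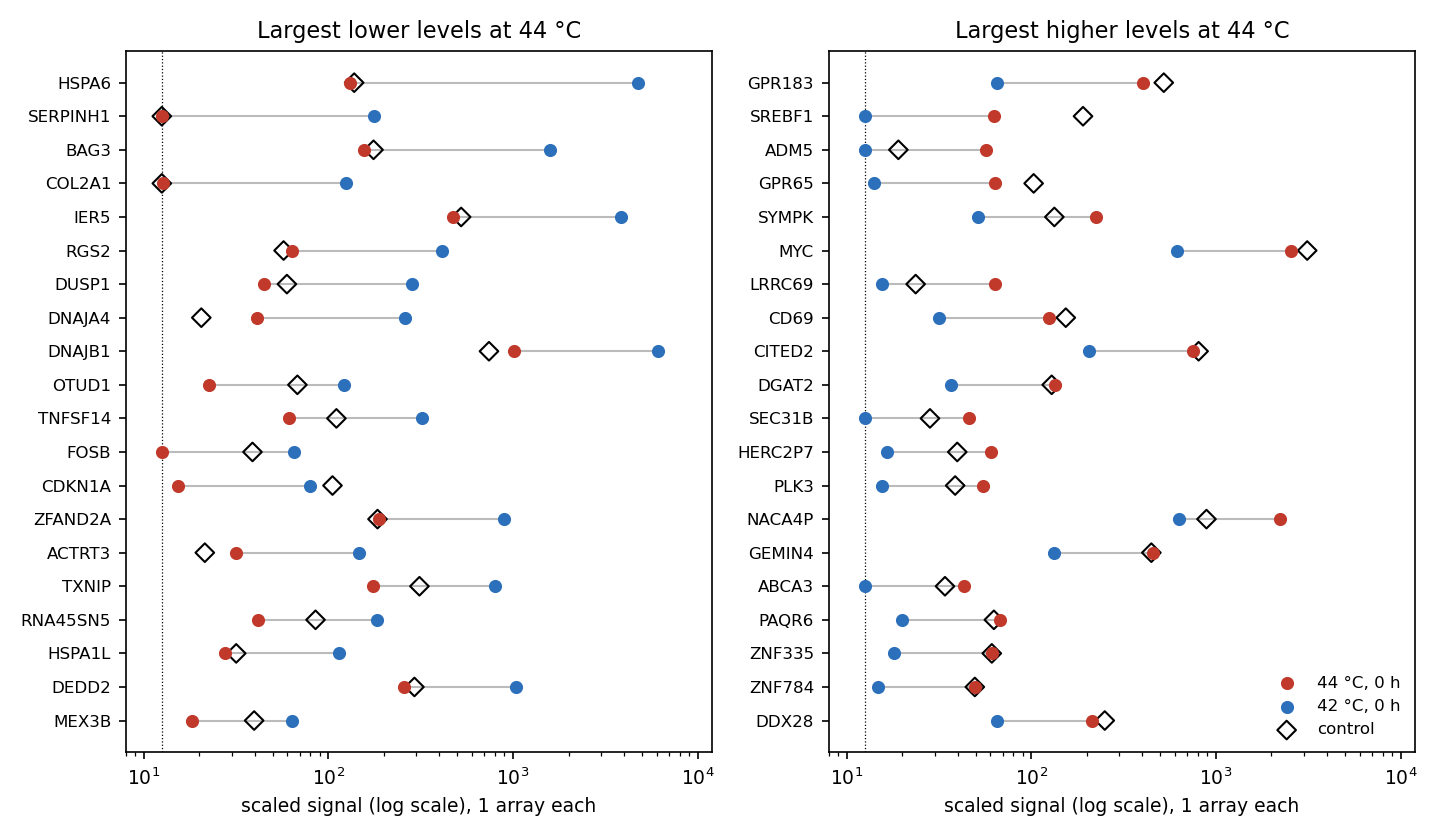
Scaled signals (log scale, 1 array each) of the 20 genes with the largest lower (left) and the 20 with the largest higher levels (right) at 44 °C against 42 °C, 0 h. Red points are the 44 °C array, blue points the 42 °C array and open diamonds the control array, and the dotted line is the floor of 12.5. For HSPA6, BAG3, IER5, ZFAND2A and MYC the control lies beside the 44 °C point.

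Other genes known to be induced by heat gave the highest count of lower genes in any chaperone or heat list, 9 of 23 measured, with 0 higher and a median of -0.73. Among all genes above the floor 1.19% were lower. This list, like the others, was chosen with earlier results of these data known. SERPINH1, the collagen chaperone HSP47, was under the floor at 44 °C, against 176 at 42 °C, an at least 14.01-fold lower level. IER5, an immediate early protein that acts on HSF1, stood at 471 at 44 °C, against 3830.0 at 42 °C, an 8.13-fold lower level. ZFAND2A, a zinc finger protein bound to the proteasome, stood at 189 at 44 °C and 891 at 42 °C. DEDD2, a death effector domain protein, stood at 257 and 1041, and RGS2, a brake on G protein signalling, at 63.9 and 413, in the same order. TNFSF14, a cytokine of the TNF family, stood at 61.0 at 44 °C, against 324 at 42 °C. PPP1R15A, which directs dephosphorylation of the translation factor eIF2α, stood at 243 at 44 °C and 618 at 42 °C, and HMOX1, the heme-degrading enzyme, at 94.7 and 210.0. Over all heat shock lists together, 15 of 111 measured genes were lower and 0 higher by 2-fold or more. Of 103 above the floor, 75 had a difference below 0, beside 5844 of 12527 over all genes. Some other lists leaned the same way, with 50 of 59 ribosomal protein genes and 30 of 37 oxidative phosphorylation genes below 0. Others leaned the opposite way, such as leukocyte receptors and RGS proteins, with 8 of 23 below 0. Here and below, sign counts and list medians were not matched to all genes for signal, with which the median difference changed. Its part in them was not tested. The median of the heat shock lists together was -0.17, beside 0 over all genes, and the count of lower members was 14 to 17 under the other scalings.

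Several of the largest lower levels lay outside the heat lists. The share lower by 2-fold or more was 1.19% among all genes above the floor. COL2A1, a cartilage collagen, stood at 12.7 at 44 °C, against 124 at 42 °C, and its other probe set was also lower by 2-fold or more. COL1A1, the fibroblast collagen, was under the floor at 44 °C, against 34.8 at 42 °C, on the probe set used, and was the 1 member of 13 epithelial and fibroblast markers past 2-fold. Its 2 other probe sets differed by -0.74 and -0.34, and it was not past 2-fold with the median over probe sets or the probe set brightest at 0 h. TXNIP, an inhibitor of thioredoxin, stood at 174 at 44 °C, against 797 at 42 °C and 312 on the control array, and 2 further probe sets differed by -2.32 and -2.03. RNA45SN5, the precursor of ribosomal RNA, stood at 41.8 at 44 °C and 184 at 42 °C, and as a multicopy repeat its signal cannot be placed at 1 locus. CLK1, a kinase of splicing factors, stood at 104 at 44 °C and 320.0 at 42 °C, the 1 member past 2-fold of 23 CLK and SR protein genes.

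Immediate early genes differed in both directions. Of 43 measured, 39 were above the floor, and 12 were lower and 6 higher at 44 °C by 2-fold or more, beside 1.19% and 2.51% among all genes above the floor. The median over the 43 was -0.13. After IER5, the largest lower levels were those of DUSP1 and FOSB. DUSP1, a phosphatase of MAP kinases, stood at 44.7 at 44 °C, against 283 at 42 °C, and FOSB, an AP-1 subunit, was under the floor at 44 °C, against 65.4 at 42 °C. GADD45B, a stress sensor, stood at 219 at 44 °C and 692 at 42 °C. For ATF3 (25.6 and 70.4) and KLF2 (17.6 and 70.0) another probe set differed the other way, by 0.23 and 0.51. Members that were higher at 44 °C were MYC, PLK3, IER2, DUSP6, EGR1 and ID2. IER2 stood at 1289 at 44 °C and 472 at 42 °C, DUSP6, a phosphatase of ERK, at 293 and 115, and EGR1, a zinc finger factor, at 301 and 134. JUN, an AP-1 subunit, stood at 143 at 44 °C and 214 at 42 °C, both under its control level of 503, and FOS at 62.0 and 52.2.

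MYC, the growth-promoting transcription factor, stood at 2567 at 44 °C, against 614 at 42 °C and 3123 on the control array, a 4.18-fold higher level after 44 °C. MNT, a repressor that competes with MYC for its partner MAX, stood at 136 at 44 °C and 62.5 at 42 °C, a log2 difference of 1.13 that was 0.99 after quantile normalisation. No other gene of the MYC network (12 measured) was past 2-fold, and 0 of 38 ribosome biogenesis genes were. CITED2, a cofactor that limits hypoxia-driven transcription, stood at 753 at 44 °C, against 205 at 42 °C, and its other probe set differed by 1.98. Over 27 regulators of chromatin, transcription and mRNA decay with short-lived transcripts, CITED2 was the 1 gene higher and HES1 the 1 lower by 2-fold or more. Shares among all genes above the floor were 2.51% higher and 1.19% lower. The median over the 27 was 0.42 (0.31 to 0.32 under the other scalings). A difference above 0 was seen in 21 of 25 above the floor, beside 6683 of 12527 over all genes, without matching for signal. CDKN1B, which inhibits cyclin-dependent kinases, stood at 833 at 44 °C and 292 at 42 °C.

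Of 26 leukocyte receptors and RGS proteins, 23 were above the floor, and 7 were higher at 44 °C and 1, RGS2, was lower, beside 2.51% and 1.19% among all genes above the floor. The median over the 26 was 0.35. Beside GPR183, the acid-sensing receptor GPR65 stood at 63.3 at 44 °C and 14.1 at 42 °C, and the activation antigen CD69 at 124 and 31.7. CXCR4, the receptor of the chemokine CXCL12, stood at 1995 at 44 °C, against 775 at 42 °C, and its 2 other probe sets differed by 1.57 and 1.81. GPR132 stood at 69.4 at 44 °C and 22.9 at 42 °C, and the chemokine receptor CCR1 at 73.0 and 33.2, a log2 difference of 1.14 that was 0.99 after quantile normalisation. Of 27 inflammatory cytokines and NF-kB targets 2 were higher, CXCL8 (446 and 137) and CCL2 (915 and 443), both chemokines, and CCL2 was under 2-fold, at 0.93 on the log2 scale, after scaling to a common median. TNFAIP3, which ends NF-kB signalling, was the 1 lower, at 89.6 at 44 °C and 246 at 42 °C.

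Further genes with large higher levels had no common list. GEMIN4, of the complex that assembles splicing particles, stood at 457 at 44 °C, against 133 at 42 °C, with another probe set at 1.76. The RNA helicase DDX28 stood at 214 and 65.2, with other probe sets at 1.93 and 2.02, and DGAT2, which makes triglycerides, at 134 and 36.7, with another at 1.77. SREBF1, a master factor of lipid synthesis, stood at 63.2 at 44 °C and was under the floor at 42 °C, an at least 5.04-fold higher level, against 191 on the control array. SREBF1 and HSD17B7, an enzyme of cholesterol synthesis, were the 2 of 23 sterol genes past 2-fold. For SYMPK, of the 3′ end processing machinery, the probe set used gave 224 at 44 °C and 51.6 at 42 °C, but its 2 others differed by 0.11 and 0.27. NACA4P, at 2215 and 628, is a pseudogene whose probes may read its parent gene. Of 425 zinc finger genes 298 were above the floor, and 15 were higher and 5 lower, beside 2.51% and 1.19% among all genes above the floor. The median was 0 over the 425, which include genes at the floor on both arrays, and 0.14 over the 298. Of the 298, 193 had a difference above 0. Over all genes above the floor the median was 0.03, and 6683 of 12527 had a difference above 0.

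**Figure D3:**
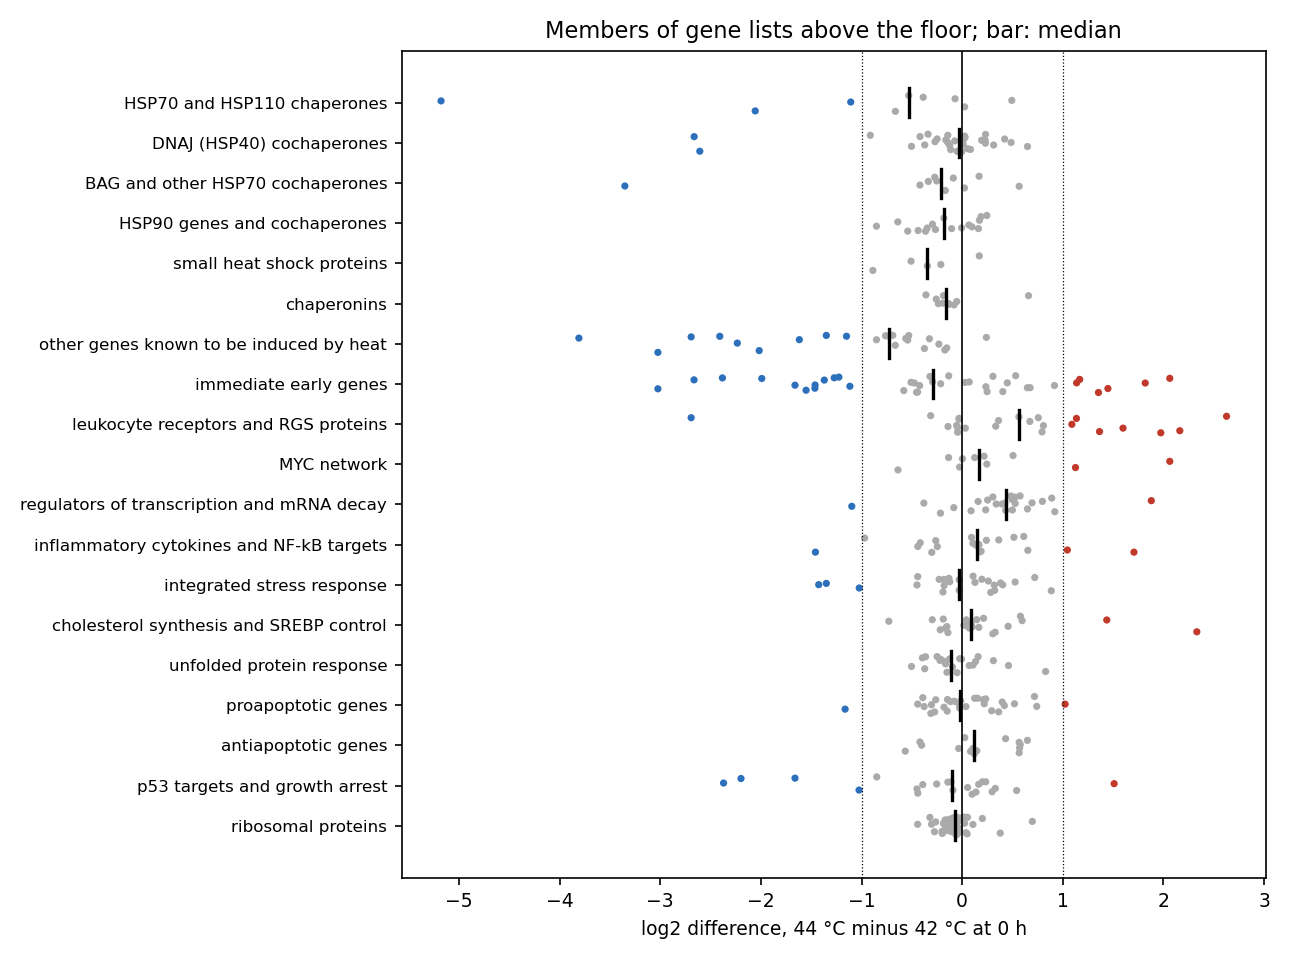
Log2 difference, 44 °C minus 42 °C at 0 h, of each member above the floor in 19 gene lists, with a black bar at the median of these members. Red points are higher and blue points lower by 2-fold or more, with dotted lines at 2-fold. Members of the heat lists past 2-fold all lie to the left, those of the receptor list lie mostly to the right, and immediate early genes lie on both sides.

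Counts past 2-fold differed between lists of stress and cell fate genes. Beside them, 2.51% of all genes above the floor were higher and 1.19% lower. Of 29 genes of the integrated stress response 25 were above the floor, and 0 were higher and 3 lower. These 3 were DDIT4 (72.0 at 44 °C and 193 at 42 °C), PPP1R15A and CHAC1. The biosynthetic targets of this response ASNS (114 and 93.6), CTH (87.0 and 72.6) and SLC7A11 (134 and 108) stood far under their control levels on both heated arrays. Those control levels were 309, 300.1 and 474. Of 22 genes of the unfolded protein response 0 were past 2-fold. CALR, a chaperone of the endoplasmic reticulum, stood at 2173 at 44 °C and 1223 at 42 °C. Of 32 proapoptotic genes TNFRSF1A, a TNF receptor, was higher (935 and 460; log2 differences of 1.02 and, after scaling to a common median, 0.91) and PMAIP1, a BH3-only protein, was lower (326 and 731, with another probe set at -0.46 and a median over probe sets of -0.81), while 0 of 17 antiapoptotic genes were past 2-fold. Of 25 p53 targets and growth arrest genes 22 were above the floor, and 4 were lower and 1 higher. CDKN1A, the p21 inhibitor, was among the lower ones, at 15.4 at 44 °C, against 79.5 at 42 °C and 105 on the control array. Counts past 2-fold were 0 of 28 S phase genes, 0 of 32 mitosis genes, 0 of 33 proteasome genes and 0 of 37 oxidative phosphorylation genes. They were also 0 of 24 interferon response genes, of which 15 were above the floor, and 0 of 60 ribosomal protein genes.

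Beside the control array, some of these genes stood near their unheated level at 44 °C. For HSPA6 (131 at 44 °C and 138 on the control array), BAG3 (156 and 176), IER5 (471 and 524), ZFAND2A (189 and 185), CITED2 (753 and 806) and GEMIN4 (457 and 447) the log2 difference of the 44 °C array from the control lay between -0.17 (BAG3) and 0.04 (ZFAND2A). Of the 19 genes lower by 4-fold or more, 16 had the control nearer to the 44 °C level and 3 nearer to the 42 °C level. Of all 149 lower genes these counts were 95 and 54, and of the 315 higher genes 218 and 97. The 42 °C array alone was 2-fold or more from the control for 70 lower and 139 higher genes. For 31 and 56 only the 44 °C array was, and for 46 and 118 neither was. The control lay between the 2 heated arrays for 89 lower and 190 higher genes. A difference of 2-fold between the heated arrays places at least 1 of them off the control, so the counts are a description. The 44 °C array was not the same as the control for all genes. RGS1, which turns off G protein signals, stood at 26.5 at 44 °C and 32.9 at 42 °C, against 209.9 on the control array, and INSIG1, which restrains sterol synthesis, at 1228 and 895, against 3868. OTUD1 (22.4), FOSB (under the floor), CDKN1A (15.4) and DDIT4 (72.0) stood below their control levels of 68.0, 38.8, 105 and 307 at 44 °C by 2-fold or more.

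**Figure D4:**
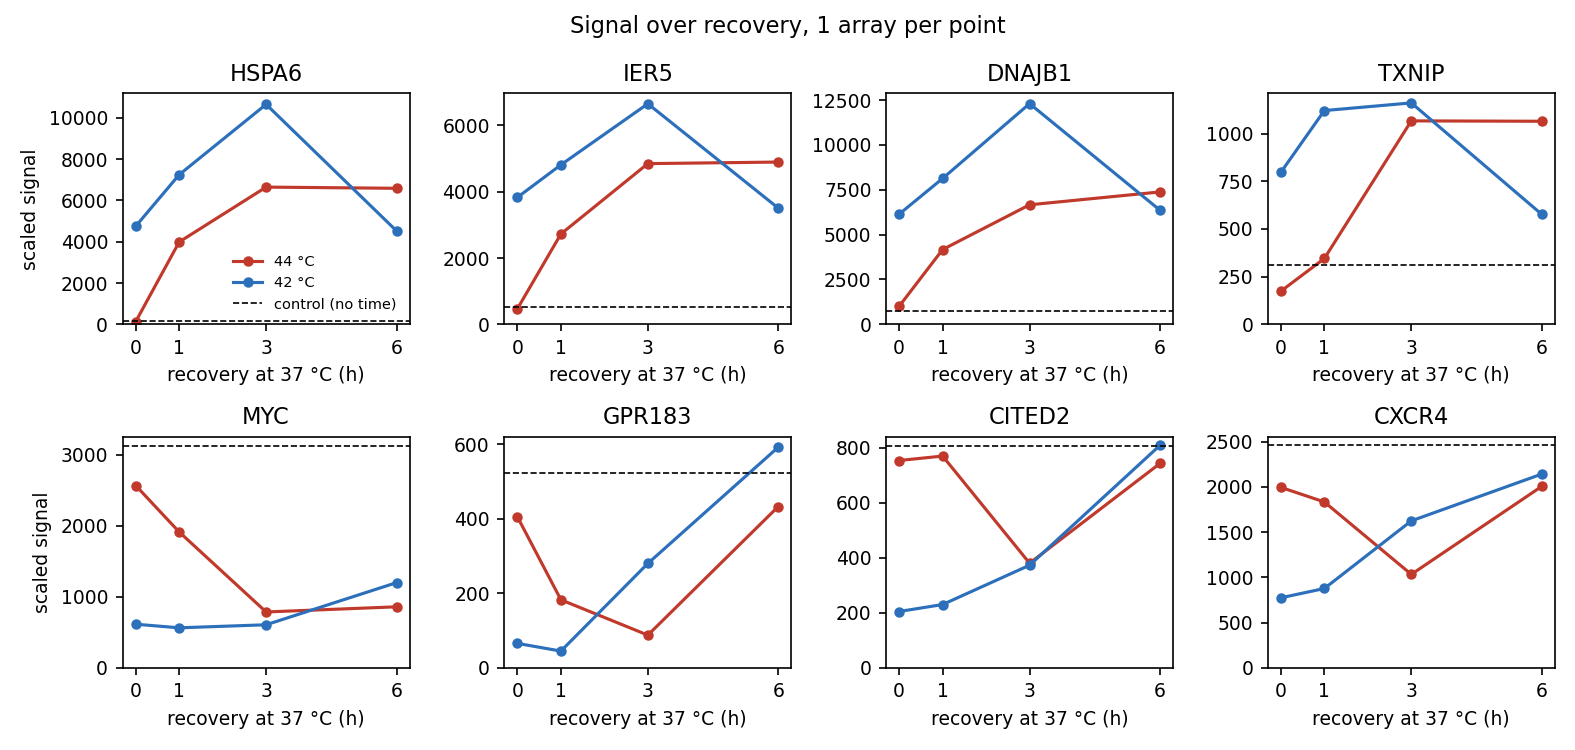
Scaled signal (linear scale from 0) of 8 genes over 0, 1, 3 and 6 h of recovery at 37 °C after 15 min at 44 °C (red) or 42 °C (blue), 1 array per point, with the control array as a dashed line. HSPA6, IER5, DNAJB1 and TXNIP start low after 44 °C and end above the 42 °C series at 6 h, and MYC, GPR183, CITED2 and CXCR4 start high after 44 °C and end below it.

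The later arrays share no array with the 0 h pair and show how long these differences were seen. HSPA6 stood at 3988 after 44 °C and 7245 after 42 °C at 1 h, at 6645 and 10652 at 3 h, and at 6587 and 4525 at 6 h. Its log2 difference was thus -5.18 at 0 h, -0.86 at 1 h, -0.68 at 3 h and 0.54 at 6 h. IER5 gave -0.82, -0.46 and 0.48 at 1, 3 and 6 h, DNAJB1 -0.96, -0.88 and 0.21, and BAG3 -1.79, -0.84 and 0.11. SERPINH1 had the widest gap among these at 1 and 3 h, under the floor after 44 °C and 271 after 42 °C at 1 h, 102 and 475 at 3 h, and 371 and 506 at 6 h. Of the 149 genes lower at 0 h, 49 were lower by 2-fold or more at 1 h and 3 higher, beside 2% lower and 1.59% higher among all genes above the floor on the 1 h pair, and 119 had a difference below 0, with a median of -0.63. At 3 h 13 were lower and 2 higher, beside 1.55% and 1.63% of genes above the floor on that pair, and the median was -0.28. At 6 h 6 were lower and 12 higher, beside 2.13% and 1.32% on that pair, and 83 lay above 0. All 19 genes lower by 4-fold or more at 0 h were below 0 at 1 h, 16 were at 3 h, and 17 were above 0 at 6 h.

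Among the genes higher at 44 °C the later differences were smaller. Of the 315, 54 were higher by 2-fold or more at 1 h and 13 lower, beside 1.53% higher and 1.80% lower among the 12527 genes above the floor on the 0 h pair, and the median was 0.34. At 3 h 22 were higher and 10 lower, beside 1.54% and 1.35%, with a median of 0.09. At 6 h 6 were higher and 14 lower, beside 1.24% and 1.94%, with a median of -0.08. Over those 12527 genes, the medians at 1, 3 and 6 h were 0. MYC stood at 1914 after 44 °C and 564 after 42 °C at 1 h, at 787 and 607 at 3 h, and at 859 and 1199.8 at 6 h. GPR183 stood at 183 after 44 °C and 45.0 after 42 °C at 1 h, at 87.8 and 280.0 at 3 h, and at 433 and 592 at 6 h, so the 44 °C array was the lower of the 2 from 3 h on. CITED2 differed by 1.74 at 1 h and 0.03 at 3 h, and CXCR4 by 1.06 at 1 h and -0.65 at 3 h.

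**Figure D5:**
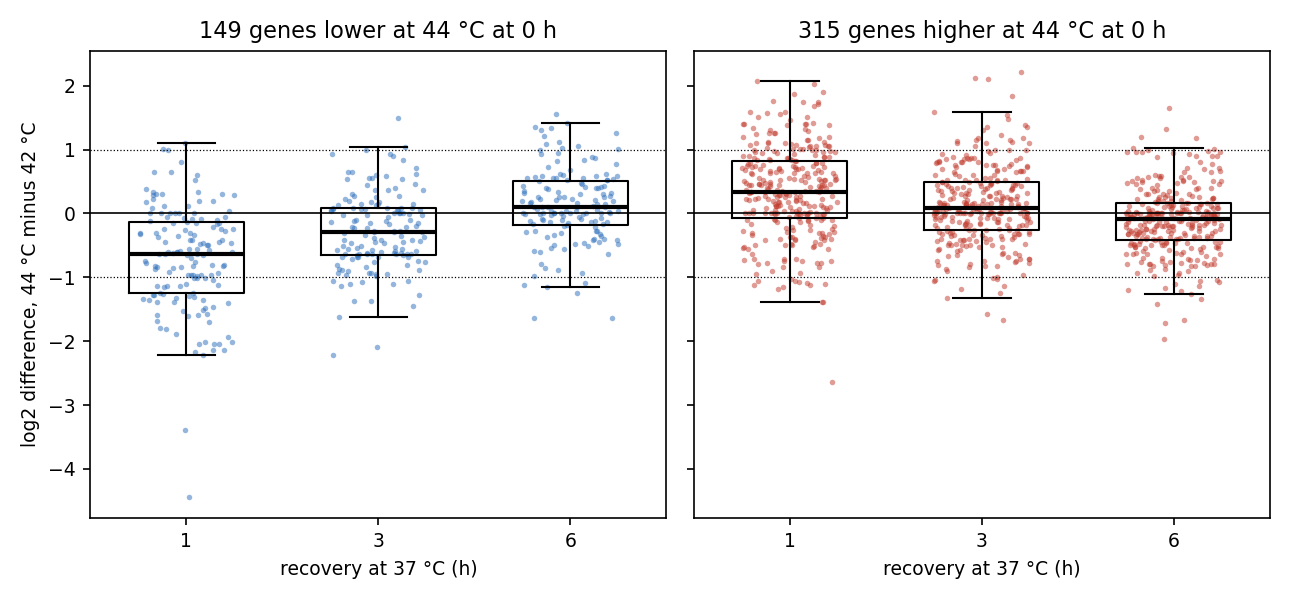
Log2 difference, 44 °C minus 42 °C, at 1, 3 and 6 h of recovery for the 149 genes lower (left, blue) and the 315 genes higher (right, red) at 44 °C at 0 h. Points are genes, boxes span the middle of each distribution with a thick line at the median, and dotted lines mark 2-fold. The medians of the genes lower at 0 h are -0.63, -0.28 and 0.10, and those of the genes higher at 0 h are 0.34, 0.09 and -0.08.

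The promoters of the genes past 2-fold were searched for the elements shown above. Of the 149 lower genes 103 had a promoter in the RefSeq table, and 14 of these (13.6%) held a match of a pair of units, compared with 23 of 244 higher genes (9.43%), 10.2% of 10155 genes above the floor on the pair and 13.7% of all 27305 promoters. Among lower genes that are in a heat list the count was 5 of 13 (38.5%), and among lower genes in no heat list 9 of 90 (10%). The run of 3 units was found in 3 lower genes (2.91%), HSPA6 and SERPINH1 among them, in 0 higher genes and in 0.487% of all promoters. Of further lower genes, ZFAND2A, whose match begins 171 bases before the start, HSPA1L, DDIT4 and HES1 held a match. So did HSPB1, JUN, IL1B and ASNS, which were within 2-fold, and CXCR4, GPR132 and ZNF335, which were higher. BAG3, DNAJB1, DEDD2 and GPR183 held none within these 300 bases. No match says only that these letters are not in this window.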

How the data were processed

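Total RNA of 9 U937 cultures was hybridised to 9 Affymetrix U133 Plus 2.0 arrays. Per the labels' protocols, biotin-labelled cRNA was made in a one-cycle 3′ amplification. The values deposited by the authors are intensity on a linear scale for 54675 probe sets of each array. These are MAS5 signals per the submitters' processing notes. Their scaling target is not given in the sources used here.

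Each array was scaled to a trimmed mean of 100, with 2% trimmed at each end, over 54613 probe sets without controls (factors of 0.581 at 44 °C and 0.623 at 42 °C). Such scaling can shift bright genes together. Values were raised to a floor of 12.5 and taken to log2. Of all probe sets, 41097 had 1 symbol in the platform annotation, and 41043 of these matched RefSeq by gene number. Each of 19775 genes was read from its brightest probe set (mean log2 signal over all arrays).

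Groups of 1 array allow no test, and the number of arrays limits the precision. A gene counts as higher or lower at a log2 difference of at least 1 in size. Named genes are HSPA6, IER5, MYC and GPR183, the 20 largest differences in each direction (without names of clones, reading frames, antisense, histone or immunoglobulin genes, or another probe set of opposite sign by at least 0.5), at most 6 members per direction from each of 38 lists, and a set of stress genes named whatever their values. ELANE, CTSG, CD14, MPO and FCGR1A were named for the label check after their values were seen. The comparison, members and lists were chosen with earlier results of these data known. Scripts were tested on simulated data. Promoters are from RefSeq (GRCh38.p14). Python 3.11.15, numpy 2.4.6 and pandas 2.3.3 were used. The 7 alternatives tried cover scaling, floor and choice of probe set.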

Additional observations from a re-analysis of the deposited data

Results flagged for a closer look

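For several named genes the difference between 44 °C and 42 °C at a later time had the opposite sign to that at 0 h, by 2-fold or more at both. None of these reversals was tested, since each rests on 1 array per group. DUSP1, TNFSF14, ZNF569 and CDKN2B were lower at 44 °C at 0 h and higher at 6 h, by 1.11, 1.35, 1.30 and 1.33 on the log2 scale in that order. DUSP1 stood at 336 after 44 °C and 155 after 42 °C at 6 h, and TNFSF14 at 295 and 116. Among genes higher at 44 °C at 0 h, GPR183 and CD69 differed by -1.67 and -1.58 at 3 h. CD69 stood at 71.3 after 44 °C and 213 after 42 °C there. EGR1 and ZNF335 differed by -1.71 and -1.26 at 6 h, and EGR1 stood at 78.0 after 44 °C and 256 after 42 °C. HSD17B7 and H4C4 differed by -1.39 and -1.19 at 1 h. Both were dim, as were CDKN2B and ZNF569, whose 42 °C levels at 6 h lay under the floor. Another probe set differed at 0 h by -0.20 for ZNF569 and by -0.09 for ZNF335.

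Probe sets without a gene of their own entered no gene or list count above. Of 11721 that the annotation does not list, 508 were higher and 77 lower at 44 °C by 2-fold or more at 0 h, and at 4-fold or more the counts were 36 and 6. Of 1801 listed for several genes, 33 were higher and 18 lower, and 1 was higher and 4 lower at 4-fold or more. Both totals include probe sets under the floor on both arrays. Of the 12527 genes above the floor on 1 or both arrays, 2.51% were higher and 1.19% lower by 2-fold or more. Among those listed for several genes, the probe set with the largest lower level stood at 402 on the 44 °C array, 4223 on the 42 °C array and 368 on the control array, and the next at 831, 6095 and 636.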

How the results depend on the processing

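No paired analysis was possible because each group had 1 array, and for the same reason no replicate could be left out. Genes higher at 44 °C numbered 1600 with the floor at the 25th percentile, 85 with it at the 75th, 208 with a pseudocount in place of the floor and 172 with the median over probe sets, against 315. Genes lower numbered 1562, 31, 156 and 95 with the low floor, the high floor, the pseudocount and the median over probe sets, against 149. With the pseudocount, 153 of the 315 higher and 83 of the 149 lower genes stayed past 2-fold. With the median over probe sets, 151 and 92 did. The scalings gave 214 lower (quantile) and 196 (common median), and the probe set brightest at 0 h gave 311 higher and 146 lower. With the high floor the median at 1 h of the genes lower at 0 h was 0, since many values then lie at the floor. None of the 78 named genes past 2-fold changed sign under any alternative, while some within 2-fold did, such as HMGCS1 (-0.40 to 0.58). Of the 78, 75 stayed past it after quantile normalisation, 76 after scaling to a common median, 78 with the low floor, 38 with the high floor, 68 with the pseudocount, 58 with the median over probe sets and 77 with the probe set brightest at 0 h. Signals near the floor limit the counts.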
